A study of Mus musculus with 12 samples.

Results

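The very deep CpG sites described here were the 760 autosomal CpG sites, of 21867550 CpG sites in the deposited table, at which the 12 libraries together gave 600 or more reads. Sites at chr2:98660001-98670000 (mm10), a single locus with 55 equally deep sites, were left out, and 7 equally deep sites on chromosomes X and Y were not members. The members were chosen by their summed read depth, which is therefore only described, whereas methylation played no part in the choice. The shallowest members, with 601, 601 and 602 reads, had 11.1%, 8.99% and 0.831% of their reads methylated, and the deepest sites just outside, with 595, 597 and 598 reads, had 6.55%, 0.335% and 22.2%. Members within 10 kb of each other were joined into 71 clusters.

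All 12 libraries came from mouse embryonic stem (ES) cells that lack Dnmt1, Dnmt3a and Dnmt3b (DNMT TKO), rescued with a human DNA methyltransferase on the pPyCAGIZ vector and kept under Zeocin, so every line shared the triple knockout, the vector and the drug. Each of the 6 groups had 2 independently derived lines: DNMT3A WT, DNMT3B WT set a (replicates 1a and 2a), DNMT3B N656I, DNMT3B WT set b (replicates 1b and 2b), DNMT3B K777A and DNMT3B N779A. Methylation was read by enhanced reduced representation bisulfite sequencing (eRRBS), in which DNA is cut with restriction enzymes, treated with bisulfite and sequenced, so that a protected, methylated cytosine is told from an unmethylated one. DNMT3A and N656I were compared with set a, and K777A and N779A with set b, whose library names share a prefix with theirs. Comparisons that share a control set are not independent, all enzymes were expressed from a vector at levels not analysed here, and p-values measured only the spread between these lines.

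DNMT3A and DNMT3B are the de novo enzymes that place methyl groups on unmethylated CpG sites, while DNMT1 copies the pattern after replication. With all 3 mouse enzymes absent, the rescue asks where the introduced enzyme places methylation. No empty-vector library was analysed here, so a background level was not measured. Tandem repeats are classical substrates for the question of which enzyme does this: pericentromeric satellite DNA is packed in constitutive heterochromatin, and the ribosomal DNA (rDNA) repeats exist as active and silent units that differ in methylation in normal cells. An assembly holds far fewer units of such repeats than a cell does, so reads from many units pile up on the same reference positions.

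The members fell into 5 sequence classes. The largest single cluster was the 45S rDNA sequence at chr17:39843014-39848565, with 341 members around an annotated 18S gene, all in exons of noncoding genes (Gm26917, CT010467.1, Gm42418 and AY036118). In 5 clusters with 108 members the sequence was a satellite: all 5 shared one family at 90% identity or more, and in the 2 longest, on chromosomes 9 and 14, it repeated itself every 234 bp, with 81.4% and 54.5% of bases identical, the unit length of the mouse major (gamma) satellite. No such period was found in the other 3, which are short and hold 13 members. Of the remaining clusters, 30 with 67 members had between 168 and 47643 other near-copies in the assembly (dispersed repeats), 14 with 172 members had few near-copies and were CpG-dense (a median of 12 or more CpG in 200 bp), and 21 with 72 members had few near-copies and were CpG-poor. A near-copy was a stretch at least 90% identical over at least 50% of the 300 bp around a cluster's deepest site.

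Near-copies elsewhere in the assembly were thus found for most clusters but not for all. They are copies that the assembly keeps apart, so their number does not show how many units are collapsed onto a position. The 45S cluster had no near-copy elsewhere on the assembled chromosomes, and 8 further clusters, 6 CpG-dense and 2 CpG-poor, had none either. Copy number in the cells was not measured. As a whole the members were denser in CpG than the 3107540 other autosomal sites with at least 10 reads in a line: a median of 16 against 4 CpG in 200 bp, and 64.7% against 14.7% in dense sequence.

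Stretches of 240 bp around the deepest member of 5 clusters show how different these sequences are. They are plus-strand mm10 sequence from the RefSeq GRCm38.p6 assembly, and capitals mark the CG of each member site.
45S rDNA, chr17:39845663-39845902: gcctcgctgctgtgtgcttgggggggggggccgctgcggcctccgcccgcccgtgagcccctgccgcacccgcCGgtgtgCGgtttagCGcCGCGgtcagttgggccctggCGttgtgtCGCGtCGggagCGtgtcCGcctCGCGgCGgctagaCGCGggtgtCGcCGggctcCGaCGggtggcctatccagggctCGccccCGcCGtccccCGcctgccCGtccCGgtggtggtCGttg
Satellite, chr9:3001334-3001573: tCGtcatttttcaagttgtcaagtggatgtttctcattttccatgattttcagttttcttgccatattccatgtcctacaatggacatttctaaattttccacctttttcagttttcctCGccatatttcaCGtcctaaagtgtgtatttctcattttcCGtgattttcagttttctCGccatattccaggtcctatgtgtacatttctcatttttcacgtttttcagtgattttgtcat
Satellite, chr14:19418717-19418956: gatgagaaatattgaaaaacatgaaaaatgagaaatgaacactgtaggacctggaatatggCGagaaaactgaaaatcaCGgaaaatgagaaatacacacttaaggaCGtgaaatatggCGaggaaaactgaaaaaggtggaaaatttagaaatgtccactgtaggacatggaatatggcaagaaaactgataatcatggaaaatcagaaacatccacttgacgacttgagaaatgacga
CpG-dense, few copies, chr11:3193662-3193901: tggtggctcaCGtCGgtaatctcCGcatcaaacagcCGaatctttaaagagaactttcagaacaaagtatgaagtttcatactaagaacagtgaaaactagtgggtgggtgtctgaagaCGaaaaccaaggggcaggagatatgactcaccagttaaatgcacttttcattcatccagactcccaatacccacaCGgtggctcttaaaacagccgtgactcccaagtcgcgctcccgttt
CpG-poor, few copies, chr15:75086545-75086784: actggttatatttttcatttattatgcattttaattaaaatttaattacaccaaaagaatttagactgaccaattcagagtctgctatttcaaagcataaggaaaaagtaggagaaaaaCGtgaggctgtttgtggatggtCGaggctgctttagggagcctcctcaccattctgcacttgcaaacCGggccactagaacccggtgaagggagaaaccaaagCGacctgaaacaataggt
The 45S stretch, upstream of 18S in Gm26917, holds 27 members. The satellite stretches, in an intron of Gm26870 and in the coding sequence annotated for Gm21738, hold 5 and 4 members, well spaced in sequence rich in A and T. The chromosome 11 stretch lies in an intron of Drg1, which encodes a developmentally regulated GTP-binding protein, and holds 6. Its cluster is CpG-dense by the median over 42 members, while the stretch around the deepest one is itself poorer in CpG. The chromosome 15 stretch is intergenic and holds 4.

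Reads on CpG sites ran from 16224222 to 36029921 per line, and the members took between 0.531% and 2.26% of them. For the 45S sites this share was between 0.329% and 0.568% in 10 lines, 1.5% in K777A line 1 and 1.55% in N779A line 2. For the satellite sites it was between 0.0326% and 0.0431% in the 8 DNMT3A, DNMT3B WT and N656I lines, 0.273% and 0.302% in the K777A lines, and 0.259% and 0.0583% in the N779A lines. Both K777A lines and N779A line 1 thus carried several times more satellite reads than the other lines. Of the 760 members, 511 reach 600 reads without those 4 lines, among them 25 of 108 satellite and 21 of 67 dispersed sites. The part of this depth in the methylation values was not tested. Class means of satellite, dispersed and CpG-poor members are given for those sites too, whereas contexts, families, ratios and cluster counts rest on all members.

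**Figure D1:**
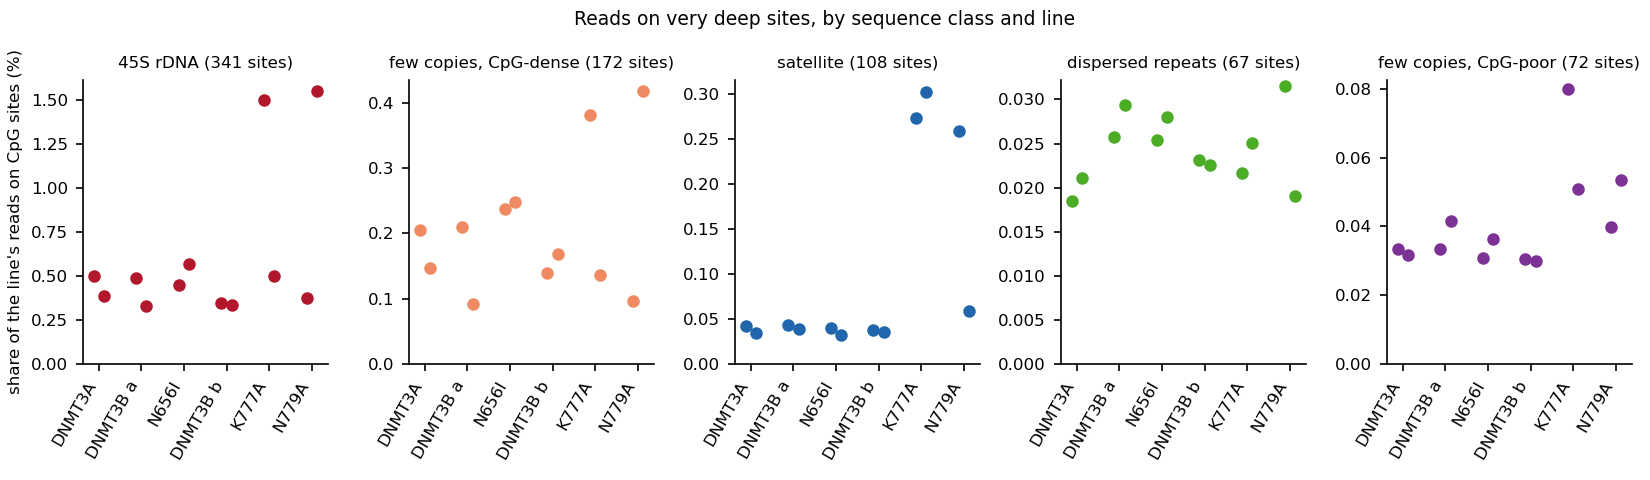
Share of each line's CpG reads (y axis, %) that fell on very deep sites, by group (x axis) in 5 panels for the sequence classes, with 1 point per line. The K777A lines and N779A line 1 stand at 0.259% to 0.302% on satellite sites where the 8 lines without these substitutions lie at or below 0.0431%.

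Across all members the DNMT3A lines had mean methylation levels of 14.0% and 14.7%, and the set a lines of 6.69% and 6.23%, where the level is the mean over sites with at least 10 reads in a line of methylated reads as a percent of all reads. DNMT3A was thus higher by 7.89 points (14.4 ± 0.49% against 6.46 ± 0.33%, SD, n = 2 each), and the lines did not overlap. The direction held under every setting but the size did not, being smaller with reads weighted equally and 14.6 points without the 45S cluster. With 2 lines against 2, the smallest two-sided p an exact permutation test can give is 0.33, which applies to every comparison of 2 groups of lines. The N656I lines stood at 5.18% and 5.05%, both below set a, a difference of −1.35 points. Over members of 1200 or more reads the difference was −0.39 points and the lines overlapped. The set b lines stood at 5.40% and 5.13%, the K777A lines at 3.79% and 3.98%, and the N779A lines at 5.40% and 6.40%. K777A differed from set b by −1.38 points and N779A by 0.64. Neither direction held under every setting, since K777A was at 0.22 points with reads weighted equally and N779A at −0.49 with members of 300 or more reads. The sets of DNMT3B WT lines themselves differed by 1.2 points, without overlap. This is near the size of the differences of N656I and K777A from their controls and larger than that of N779A.

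These averages joined classes that moved in opposite directions. The 45S sites, 341 of the 760, were nearly unmethylated in every line, so classes are described in turn.

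**Figure D2:**
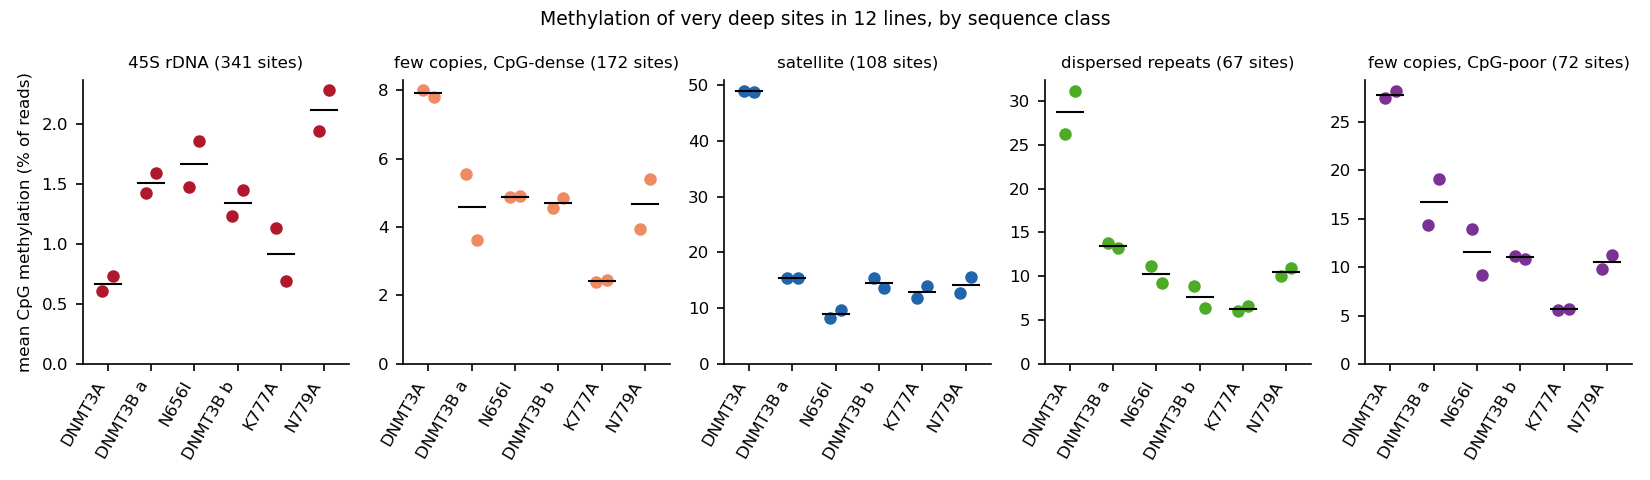
Mean methylation of very deep sites (y axis, % of reads, each panel with its own scale) by group (x axis) in 5 panels for the sequence classes, with 1 point per line and a bar at the group mean. DNMT3A is near 49% at satellite sites and lowest of the groups at 45S rDNA.

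Satellite sites carried the widest gap between the enzymes. Their mean level was 48.9% in both DNMT3A lines and 15.4% in both set a lines, a difference of 33.5 points, or 3.18-fold. All 5 satellite clusters had both DNMT3A lines above both set a lines, as had 43.8% of clusters of other autosomal sites. The N656I lines, at 8.26% and 9.71%, were below set a by 6.40 points, again without overlap. By cluster, both N656I lines were below both set a lines in 3 of the 5, as in 11.2% of clusters of other autosomal sites. Set b stood at 15.4% and 13.6%, K777A at 11.8% and 14.0%, and N779A at 12.6% and 15.6%, and these 3 groups overlapped (exact permutation p = 0.67 for K777A and 1 for N779A against set b, two-sided).

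At the 25 satellite sites that are deep without the K777A and N779A lines, DNMT3A stood at 45.7% and 47.2%, set a at 14.6% and 16.5% and N656I at 8.41% and 11.2%, as separate as over all 108. There the set b lines, at 18.3% and 14.7%, no longer overlapped the K777A lines, at 11.9% and 14.0%, and the difference was −3.53 points (exact p = 0.33), where over all 108 sites it was −1.58. The larger chromosome 9 cluster, with 66 members across Gm10717 to Gm26870, and the chromosome 14 cluster at Gm21738, with 29, gave similar group means: 50.0 ± 2.0% and 46.2 ± 2.0% for DNMT3A, 15.8 ± 1.7% and 16.7 ± 5.7% for set a, 9.13 ± 1.4% and 9.02 ± 0.85% for N656I, and 12.9 ± 1.3% and 13.4 ± 2.2% for K777A (SD, n = 2). The 55 sites of the locus on chromosome 2 that was left out had levels of 36.9% and 34.7% with DNMT3A, 15.5% and 17.5% with set a, and 8.27% and 8.61% with N656I, the same order of groups.

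Single satellite sites with very many reads did not all follow the class mean. At chr9:3001453 (context CCTCGCCA, intron of Gm26870), K777A gave 1.86% and 2.13% of 2847 and 5340 reads, and set b 12.1% and 14.3% of 99 and 98 reads. At the same site DNMT3A gave 16.1% and 14.9%, about the level of set a, at 16.8% and 23.5%. At chr12:3109923 (TGGCGAGG, intergenic), DNMT3A gave 49.4% and 46.1%, set a 12.6% and 6.35%, set b 19.3% and 12.6%, and K777A 8.33% and 9.76% of 4010 and 6170 reads. Both sites have the core GCGA on one strand, and at both the K777A lines were below set b.

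By 8-base context, the K777A lines lay above set b at some satellite sites and below it at others. The 12 sites with AAACGTGA (here and below, a context and its reverse complement are counted as one) were at 4.94% and 3.38% in set b and at 9.09% and 11.3% in K777A. By contrast, the 11 sites with TCTCGCCA were at 24.0% and 17.4% in set b and 9.51% and 10.9% in K777A, and the 17 sites with CCTCGCCA at 12.9% and 16.6% and then 7.96% and 9.48%. Neither direction overlapped between the groups, while the lines overlapped for GGACGTGA (18 sites) and TCACGGAA (20 sites). These contexts were picked for description after their values were seen, and the difference between them was not tested. They also rest on all 108 satellite members, of which only 25 reach 600 reads without the K777A and N779A lines. With each site and its neighbouring base on either side taken as a core, the satellite has no CCGG core, while 29.6% of its cores are GCGA and 28.7% ACGT.

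The 45S rDNA cluster showed the reverse order of the WT enzymes. Its mean level was 0.607% and 0.731% with DNMT3A, 1.42% and 1.59% in set a and 1.23% and 1.45% in set b. DNMT3A was thus at 0.44 times the level of set a, and lower by 0.84 points. N779A was the highest group, at 1.94% and 2.28%, against set b a ratio of 1.58 without overlap, and also above both set a lines. K777A, at 1.13% and 0.692%, lay below both set b lines, and N656I, at 1.48% and 1.86%, overlapped set a. With reads weighted equally in place of sites, the levels were 0.614% and 0.799% for DNMT3A and 1.56% and 1.48% for set a. N656I, at 1.60% and 1.77%, then lay above set a without overlap. All of these values are low. The study reports high bisulfite conversion, measured on unmethylated lambda DNA. The share of unmethylated cytosines left unconverted in each library was not tested here. The other autosomal sites in dense sequence were at 2.13% and 2.79% with DNMT3A and at 1.53% and 1.78% with set a.

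The group means kept their order along most of the rDNA cluster. In 500-bp bins counted from the annotated start of 18S, the DNMT3A mean was below that of set a in 12 of 12 bins and below that of set b in 11 of 12, but in some bins the lines overlapped. In the first 500 bp of 18S, for example, the DNMT3A lines were at 0.748% and 0.572% and the set a lines at 1.23% and 0.122%. The N779A mean was above that of set b in 12 of 12 bins, without overlap of the lines in 9. The K777A mean was below that of set b in 11 of 12, but without overlap in only 4. Over the other autosomal sites in dense sequence, too, N779A (1.90% and 1.77%) was above set b (1.64% and 1.34%) and K777A (1.02% and 0.840%) below it. Site by site the order was less even: of 321 sites with at least 10 reads in the 4 lines, DNMT3A was lower at 180, higher at 120 and equal at 21. K777A was lower than set b at 172 and higher at 161 of 338 sites, nearly even, and N779A higher at 240 and lower at 90 of 336. Within the 18S gene, which encodes the RNA of the small ribosomal subunit, the levels were 0.602% and 0.811% for DNMT3A, 1.43% and 0.971% for set a and 1.86% and 2.19% for N779A.

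**Figure D3:**
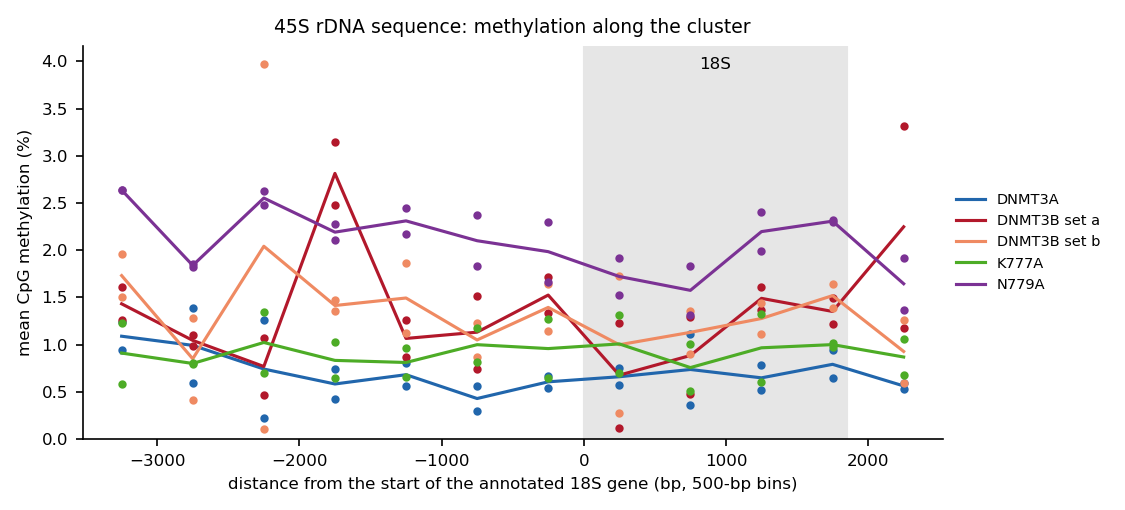
Methylation (y axis, %) along the 45S rDNA cluster in 500-bp bins (x axis, bp from the annotated start of 18S, shaded), with 1 point per line and a curve through each group's mean. The DNMT3A mean is below that of set a in 12 of 12 bins and the N779A mean above that of set b in 12 of 12, with lines that overlap in some bins.

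By the bases next to CG, set a exceeded DNMT3A most at CCGG and CCGA sites among the 45S cores with over 20 sites. At 44 CCGG sites DNMT3A gave 0.940% and 0.686%, set a 2.89% and 1.78%, N656I 3.09% and 3.68%, set b 2.51% and 2.43%, K777A 0.934% and 0.615% and N779A 2.61% and 3.12%. K777A thus lay where DNMT3A did. CCGA, at 48 sites, gave 0.393% and 0.400% for DNMT3A, 1.89% and 2.42% for set a, 1.74% and 2.42% for set b and 0.984% and 0.720% for K777A. At 30 GCGC sites N779A was highest at 2.17% and 2.90%, against 0.732% and 0.447% in set b. The deepest 45S site, chr17:39845782 (TGTCGCGT), with 237 to 2685 reads per line, gave 0.595% and 0.723% for DNMT3A, 0.429% and 0.844% for set a, and 2.61% and 2.16% for N779A.

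The members in CpG-dense sequence with few copies were at 8.02% and 7.81% with DNMT3A, 5.55% and 3.63% with set a, 4.56% and 4.85% with set b, and 2.39% and 2.46% with K777A. That mean rested on 1 of 14 clusters. The 42 members at chr11:3188733-3199739, which overlaps Drg1 and Sfi1 (a centrosomal protein gene), were at 29.0% and 27.5% with DNMT3A, 14.6% and 10.9% with set a, 14.0% and 11.6% with set b, 6.22% and 6.93% with K777A and 10.0% and 14.7% with N779A. Without them the class was at 0.86% and 1.10% with DNMT3A, at 2.46% and 0.80% with set a, at 1.34% and 2.53% with set b and at 1.15% and 1.02% with K777A, so that K777A still did not overlap set b while DNMT3A overlapped set a. These levels are in the low range of the 45S sites. The clusters at chr3:5860473-5860740 (intergenic), chr5:146261012-146261294 (Cdk8, a Mediator kinase gene), chr11:109011737-109011928 (intergenic), chr16:11144050-11144121 (Zc3h7a) and chr16:57391362-57391516 (Cmss1 and Filip1l), with 13 to 19 members each, had mean levels between 0.123% and 3.38% in every line. The 3 members in an intron of Ndufb8, a gene for a subunit of mitochondrial complex I, include the deepest member of all, chr19:44555146 with 38597 reads, whose level lay between 0.240% and 1.34% in every line.

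CpG-poor members with few copies were at 27.4% and 28.2% with DNMT3A, 14.3% and 19.1% with set a, 13.9% and 9.17% with N656I, 11.2% and 10.9% with set b, 5.54% and 5.72% with K777A and 9.86% and 11.2% with N779A. K777A was at 0.51 times the level of set b, without overlap, and set a was above set b by 5.68 points, also without overlap. N779A overlapped set b, but with reads weighted equally it was below set b, at 5.72% and 7.34% against 10.5% and 10.7%. At the 37 of these sites that are deep without the K777A and N779A lines, set a had only 8.98% and 5.21%, overlapping N656I (8.38% and 5.13%) and set b (7.76% and 8.94%), while DNMT3A (22.8% and 26.6%) and K777A (3.97% and 4.0%) stayed apart from their controls. Their clusters ranged widely, from 0.584% to 76.5% with DNMT3A. The chromosome 15 cluster whose sequence is printed above was at 23.8% and 24.0% with DNMT3A and 6.50% and 1.65% with set a. Its deepest site, chr15:75086664 (AAACGTGA), gave 31.8% and 33.1% with DNMT3A, 4.15% and 0.433% with set a, 1.92% and 6.54% with set b, and 9.19% and 7.45% with K777A of 3015 and 2243 reads. At that site, as over the satellite sites of the same context, K777A was above set b, while the rest of its cluster left the cluster mean lower, at 3.4% and 2.7% against 5.42% and 11.6%.

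Dispersed repeats were at 26.2% and 31.1% with DNMT3A and at 13.8% and 13.2% with set a, 15.2 points apart. N656I, at 11.2% and 9.25%, was below set a. The WT sets differed here too, since set b stood at 8.86% and 6.36%, 5.85 points below set a. N779A, at 10.1% and 10.9%, was above set b by 2.87 points and below set a, so its direction depends on which WT lines it is set against. K777A, at 6.01% and 6.56%, overlapped set b. At the 21 dispersed sites that are deep without the K777A and N779A lines, K777A was instead above set b, at 7.54% and 7.40% against 6.40% and 4.54%, while DNMT3A (26.2% and 27.1%), set a (9.51% and 14.3%), N656I (8.26% and 6.88%) and N779A (8.65% and 8.02%) kept their directions without overlap.

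Families of dispersed repeats differed among themselves. A set of 10 clusters with 18 members formed a family with 17806 to 20402 near-copies each, whose sites were all ACGG or ACGT, and it was at 26.2% and 31.4% with DNMT3A, 7.91% and 6.02% with set a, 3.54% and 3.12% with N656I, 7.15% and 5.17% with set b and 7.08% and 8.27% with K777A. Another 7 clusters with 15 members formed a family with 33437 to 43895 near-copies, where 5 sites were CCGG and 4 CCGC. It was at 39.4% and 43.7% with DNMT3A, 21.8% and 17.2% with set a, 18.5% and 15.3% with N656I, 8.59% and 9.42% with set b, 6.04% and 7.33% with K777A and 15.6% and 19.7% with N779A. The lines of the WT sets overlapped in the first family and did not in the second. Over the 34 dispersed members of neither family they did not overlap either, at 13.3% and 15.2% in set a and 9.88% and 5.65% in set b, and the difference between the families was not tested.

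Outside the 45S cluster, the bases beside CG sorted the members by how far each enzyme differed. At 35 CCGG sites DNMT3A (17.7% and 16.8%) and set a (18% and 16.2%) were level, while K777A was at 2.00% and 1.92% against 12.6% and 11.1% in set b. At 29 CCGA sites K777A was at 0.936% and 0.991% against 4.90% and 5.13%. At 47 ACGT sites, in contrast, DNMT3A was at 41.3% and 42.6% against 12.7% and 14.0% in set a, and K777A (11.3% and 13.7%) overlapped set b (12.9% and 9.02%). At 77 GCGA sites N656I was at 8.55% and 7.99% against 14.0% and 10.5% in set a. At 18 TCGA sites N779A was at 6.18% and 8.71% against 14.3% and 11.5% in set b, although it was not lower at ACGT sites (14.9% and 15.4%). Cores and classes are linked, since most ACGT sites are satellite sites and no CCGG site is.

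The base that follows CG on the plus strand was also taken over all members, with reads of both strands joined at a site. This base is linked to class: T follows CG at 50% of satellite and 21.4% of 45S sites, and G at 8.33% and 37.0%. For each line the mean levels of CGA, CGC, CGG and CGT sites were expressed as shares of their sum, and the share of CGG was subtracted from that of CGT. The difference was 20.2 ± 1.2 points with DNMT3A, 5.62 ± 2.5 with set a, −3.88 ± 0.22 with N656I, 5.60 ± 2.1 with set b, 26.2 ± 2.0 with K777A and 10.8 ± 0.62 with N779A (SD, n = 2). DNMT3A, N656I, K777A and N779A each differed from their control set without overlap, by 14.6, −9.49, 20.6 and 5.22 points, whereas the WT sets differed by 0.02. Over the other autosomal sites the same quantity was lower in 5 of the 6 groups (5.44, −5.47, −11.1, −4.10 and 2.93 points) and in K777A it was 27.9. The part of class in this difference between members and other sites was not tested.

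Within each line the members were less methylated than the other autosomal sites, with a mean difference of −7.64 points (SD 5.82 over 12 lines, lower in 11 of 12, exact sign-flip permutation p = 0.000977, two-sided). Without the 45S cluster the difference was −3.12 points (exact permutation p = 0.0078). Among sites of like CpG density the difference was smaller. It was −1.62 points at 1 to 2 CpG in 200 bp (lower in 10 of 12 lines, exact permutation p = 0.0039), −0.867 at 3 to 5 (7 of 12, exact permutation p = 0.370) and −2.36 at 6 to 11 (10 of 12, exact permutation p = 0.0146). At 12 or more CpG members were instead higher by 0.597 points (10 of 12 lines, exact permutation p = 0.0122). The 45S sites differed from other dense sites by −0.221 points (exact permutation p = 0.404) and the satellite sites from other sites with 3 to 5 CpG by 0.586 points (exact permutation p = 0.678). Dispersed members were below other sites of that density by 5.76 points in 12 of 12 lines (exact permutation p = 0.000488). The CpG-dense members with few copies were above other dense sites by 3.28 points in 12 of 12 lines, but without the chromosome 11 cluster by 0.0267 points (8 of 12 lines, exact permutation p = 0.922). These p-values were not adjusted for one another, and the 12 lines carry different enzymes. Each line's level of other sites rests on its own sites with at least 10 reads, so the set of other sites changes by line. Over the whole table such sites numbered from 92922 in K777A line 1 to 794973 in N656I line 1.

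The 45S, satellite and dispersed classes were also set against other sites of like density in the same line. The log2 ratio of 45S to other dense sites was −1.87 with DNMT3A and −0.13 with set a, a difference of −1.74, and with N656I it was 0.50, above set a by 0.64. With K777A (−0.06) and N779A (0.20) it overlapped set b (−0.15, exact permutation p = 0.67 for each), so their differences from set b at 45S sites were not told apart from those at other dense sites. The log2 ratio of satellite to other sites with 3 to 5 CpG was 0.68 with K777A and −0.10 with set b, a difference of 0.78, since K777A lay further below set b at the other sites than at the satellite. It was 0.24 with DNMT3A, −0.21 with set a and −0.69 with N656I, and the WT sets themselves differed by −0.11. For dispersed members it was −0.36 with K777A and −0.39 with N779A against −1.05 with set b, but set a, at −0.41, stood as far from set b. In each of the other differences given the lines of the groups did not overlap (exact permutation p = 0.33, the smallest possible). The satellite and dispersed ratios rest on all members, of which only 25 of 108 and 21 of 67 reach 600 reads without the K777A and N779A lines. How far this moves the ratios was not tested.

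Counted by cluster, DNMT3A and set a did not overlap in 47 of 64 clusters with values in the 4 lines, with DNMT3A higher in 40 and lower in 7. For clusters of other autosomal sites the share without overlap was 48.1% (43.8% with DNMT3A higher and 4.27% with it lower). Those clusters joined only sites with 10 reads in all 4 lines of a comparison and were not chosen by depth. Member clusters were chosen by summed depth, and each line's mean took the sites with 10 reads in that line. Backgrounds by cluster are thus not like for like, and the part of depth in these shares was not tested. Between the WT sets, too, the share was higher for member clusters (41.5%) than for others (23.2%). Of the 40 clusters with DNMT3A higher, 22 were dispersed, 12 CpG-poor and 5 satellite. The 7 with DNMT3A lower were the 45S cluster, 3 of 11 CpG-dense clusters, 2 dispersed and 1 CpG-poor. For K777A and set b the counts were 10 higher and 24 lower of 70 clusters, against a background of 36.1% (9.44% higher and 26.7% lower). The 24 comprised 10 CpG-poor, 6 CpG-dense and 6 dispersed clusters, 1 satellite and the 45S cluster.

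**Figure D4:**
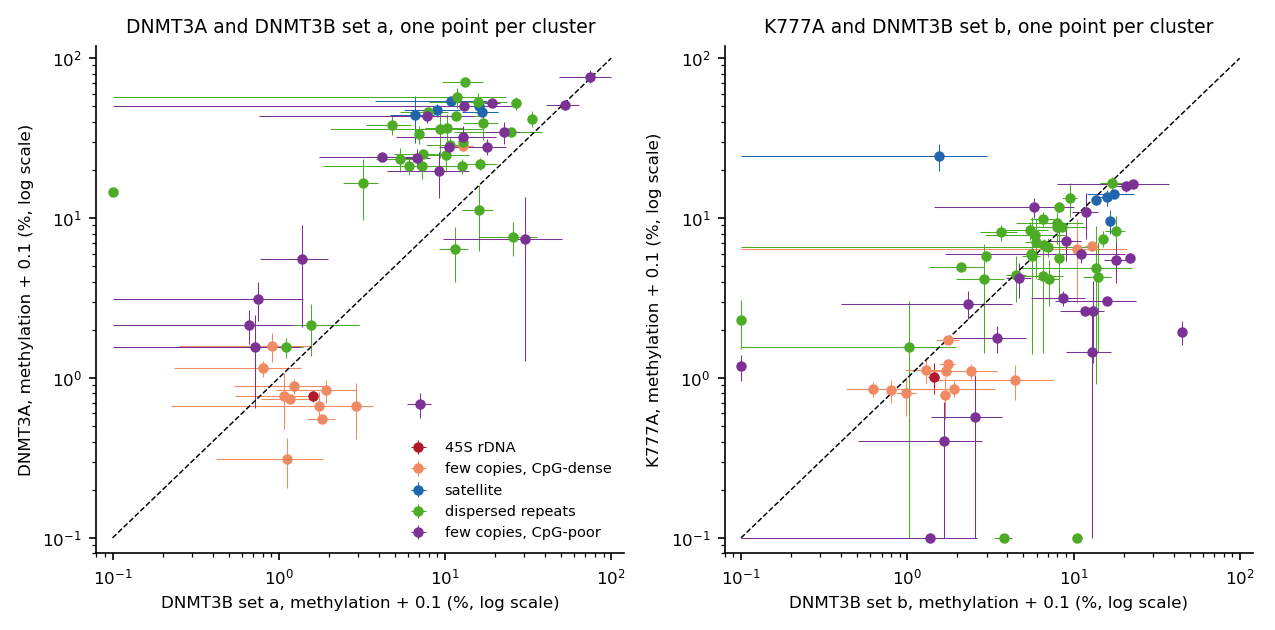
Methylation of each cluster (log scales, % plus 0.1) with DNMT3A against DNMT3B set a (left) and K777A against set b (right). Points are means of 2 lines, bars reach both lines, colours mark the sequence classes and the dashed line marks equality. Satellite and most dispersed clusters lie above the line on the left, the 45S cluster below it.

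N656I was higher than set a in 6 and lower in 15 of 65 clusters (background 21.9%, of which 10.7% higher and 11.2% lower), and 8 of the 15 were dispersed. N779A was higher than set b in 22 and lower in 6 of 68 (background 27.8%, 14.2% higher and 13.6% lower). Of the 22, 12 were dispersed, and the WT sets themselves had set a higher in 12 and lower in 4 of 30 dispersed clusters. Over all clusters set a was higher than set b in 19 and lower in 8 of 65 (background 23.2%, 14.9% higher and 8.36% lower).

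Site by site, limma on the log2 odds of methylation with 4 lines per comparison called 0 members at an adjusted p of 0.05 in all 5 comparisons, as it called 0% of all sites tested. With so few lines this says nothing about whether single sites differ. Unadjusted p-values under 0.05 were found for 95 of 655 members tested with DNMT3A, 54 of 655 with N656I, 122 of 722 with K777A, 70 of 703 with N779A and 45 of 647 between the WT sets. Over all sites tested the shares under that threshold were 18.6%, 4.15%, 17.1%, 8.92% and 5.81%, in the same order. edgeR called 13 members for K777A, 1 higher and 12 lower (background 1.17%), and 0 in the other 4 comparisons (background 0.159% for N779A and 0% for the rest). A limma fit over all 12 lines, which takes the spread from 6 pairs of lines in place of 2, could be made for 626 members among 794 sites. Most of the tested sites are thus members, so shares over all tested sites are no separate background in this fit. The fit called 92 members for DNMT3A against set a, 76 higher and 16 lower, where 17.8% of all tested sites were called (15.6% higher and 2.14% lower). These comprised 34 higher and 0 lower of 58 satellite members, 21 and 1 of 62 dispersed, 13 and 0 of 46 CpG-poor, 6 and 2 of 141 CpG-dense and 2 and 13 of 319 45S members. The median log2 change in odds was 3.17 for satellite, 1.54 for dispersed and −0.52 for 45S members, and 0.40 over all sites tested. In 45S the log2 odds of a site without methylated reads also depend on how many reads it has, through the offset of 0.5 added to each count. The 12-line fit called 11 members for K777A, 2 higher and 9 lower (background 2.77%, 0.252% higher and 2.52% lower), 1 between the WT sets (background 0.126%) and 0 for N656I and N779A (background 0%), for which 66 and 60 of 626 members had an unadjusted p under 0.05, as did 12% and 8.94% of all tested sites.

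Named sites show what lies behind these calls. At chr8:20516661 (AGGCGACC, intergenic, CpG-poor), DNMT3A gave 43.2% and 50.0% of 44 and 42 reads, and set a 0 of 33 and 0 of 216 reads. The limma log2 change was 7.22 (SE 1.04, adjusted p = 0.0033 in the 12-line fit and 0.134 with 4 lines), a size that depends on the offset because set a had no methylated read. In the 45S cluster, chr17:39844852 (CGCCGGCC, exon of Gm26917) gave 0 of 395 and 0 of 233 reads with DNMT3A against 5.33% and 5.13% of 319 and 39 reads with set a (limma log2 change −5.24, SE 0.89, adjusted p = 0.0050 in the 12-line fit).

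Among the sites called for K777A in the 12-line fit, the largest decrease was at chr11:3169266 (AGCCGGGG, in an intron of Sfi1), with 0 of 60 and 1.00% of 100 reads against 25.7% and 55.8% of 35 and 52 reads in set b (limma log2 change −5.91, SE 0.86, adjusted p = 0.0055 with 12 lines and 0.155 with 4). The larger of the 2 increases called was at the satellite site chr13:77438940 (AGTCGTCA, intron of 2210408I21Rik), with 28.8% and 19.7% of 59 and 122 reads against 0% and 2.90% of 51 and 69 (limma log2 change 4.08, SE 0.98, adjusted p = 0.049 with 12 lines). In the 4-line fit a larger increase, not called, was at chr8:20298391 (CCTCGTGT, intron of Gm26804), with 27.3% and 16.2% of 44 and 68 reads against 0 of 72 and 0 of 44 (limma log2 change 4.98, adjusted p = 0.155). The site called between the WT sets was chr8:20597055 (TTACGGAG, intergenic), with 37.9% and 44.4% of 29 and 144 reads in set a and 0 of 28 and 0 of 37 in set b (limma adjusted p = 0.0026 with 12 lines).

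In the 12-line fit the largest N656I and N779A changes without overlap were not called. N656I gave 7.32% and 10.8% of 41 and 93 reads at chr17:39845499 (GCCCGAGT, 45S) against 0 of 47 and 0 of 210 in set a. It gave 2.38% and 0% of 42 and 25 reads at chr9:3022161 (TCACGTTT, satellite) against 12.5% and 92.3% of 24 and 26, where the set a lines themselves were far apart (limma adjusted p = 0.158 for both sites with 12 lines). In the 4-line fit its largest decrease without overlap was at chr11:3158688 (GAACGAAA, intron of Sfi1), with 21.1% and 3.12% of 38 and 32 reads against 76% and 100% of 25 and 60 (limma adjusted p = 0.896). There the set b lines, at 21% and 17%, were also far below set a. N779A gave 9.50% and 5.21% of 200 and 826 reads at chr17:39843239 (GCCCGGTT, 45S) against 0 of 166 and 0 of 176 in set b (limma adjusted p = 0.104 with 12 lines). Its largest decrease was at chr16:57391391 (GGTCGGAC, intron of Cmss1 and Filip1l) in that fit, with 1.67% and 0% of 420 and 166 reads against 4.17% and 10.8% of 48 and 102 (limma adjusted p = 0.432). With 4 lines it was at chr13:3373136 (CATCGCAC, intergenic), with 0% and 5.20% of 72 and 173 reads against 37.5% and 7.89% of 24 and 38 (limma adjusted p = 0.537). Across members the lines of a group differed by a median of 0.793 points (K777A) to 1.86 points (set a), and set a line 2 covered the fewest CpG sites of all lines, 1030180.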

How the data were processed

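Genomic DNA of 12 mouse ES cell lines was digested with MspI, BfaI and MseI, and eRRBS libraries were sequenced as 150-bp pairs. Per the labels and the study's methods, the authors trimmed reads with Cutadapt (1.12 in their processing notes) and aligned them to mm10 plus lambda with Bismark 0.18.1 and Bowtie 1.2. They counted overlapping mates once, dropped a pair when 1 of its ends alone had at least 3 methylated cytosines outside CpG, and collapsed strands. The deposited table holds counts per CpG site, methylated reads and all reads for each line, with no normalization. The study's methods list no alignment option for reads with several equal alignments, and how such reads are handled decides what is counted in repeats. PCR duplicates were not marked by molecular identifiers, so reads are not independent molecules.

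Members were read with Python 3.11.15 (numpy 2.4.6, pandas 2.3.3). A site needed 10 reads in a line, and a cluster's level is the mean over its sites. Near-copies were counted with BLAST 2.17.0 against the 21 assembled chromosomes, excluding the cluster itself, and families joined clusters at 90% identity over 120 bp. Genes are from the GENCODE vM21 annotation. Levels of groups of lines were compared by exact permutation tests. Sites were fitted with limma 3.58.1 (R 4.3.3) on log2((methylated + 0.5)/(unmethylated + 0.5)), with the Benjamini-Hochberg adjustment over every site of the table with 10 reads in all lines of the fit, and with edgeR 4.0.16 as an alternative; scripts were tested on simulated data. Named sites were those with the largest fitted change in each direction, among called sites or, where there were none, those without overlap between lines. Named clusters were the 8 with the most members and the 4 deepest of the rest by median depth, each with its deepest site and its genes. The members, lists and comparisons were chosen with earlier results of these data known, and the sequence classes were set from sequence alone after methylation values had been seen. Other minimum reads, thresholds of depth, weightings, left-out lines and the replicate block were tried. Sites of chromosomes X and Y, the chromosome 2 locus and lambda were left out of the comparisons.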

Additional observations from a re-analysis of the deposited data

Results flagged for a closer look

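The 7 equally deep sites on chromosomes X and Y (5 and 2) entered no comparison, and are given here because methylated reads were found in data outside the comparisons: 10.8% of reads (1375 of 12686), pooled over 12 lines that differ in level. By line, their mean level was 27.5% and 28.9% with DNMT3A and 8.66% and 7.88% with DNMT3B set a, and it lay between 3.58% and 10.1% in the other 8 lines.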

How the results depend on the processing

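The difference in mean level over all members kept its direction under every alternative except 2: for K777A against set b it became 0.22 points with reads weighted equally, and for N779A against set b −0.49 points with members of 300 or more reads. For DNMT3A against set a the direction held but the size moved, from 7.89 points to 2.15 with reads weighted equally, 3.92 for members deep without the K777A and N779A lines, 5.17 for members of 1200 or more reads, 13.9 with clusters weighted equally and 14.6 without the 45S cluster, where the share of 45S sites changes too. For N656I it was −0.39 (lines overlapping) at 1200 or more reads, −0.32 at members deep without the K777A and N779A lines, −0.83 at sites with 10 reads in all lines, −3.16 with clusters weighted equally and −2.90 without the 45S cluster. Between the WT sets it was 0.24, 0.21, 0.73, 3.35 and 2.20 in the same order, and 0.47 with reads weighted equally. For N779A the lines overlapped those of set b in 9 of 11 settings of minimum reads, members or weights. With 1 line left out at a time it ranged from 7.55 to 8.24, and for N656I from −1.58 to −1.11, for K777A from −1.51 to −1.25, for N779A from 0.133 to 1.14 and between the WT sets from 0.965 to 1.43. The 12-line fit called 92 for DNMT3A, 11 for K777A and 1 between the WT sets, and edgeR 13 for K777A, with the shares of all tested sites given above. A minimum of 20 reads called 8 of 637 members for K777A, where 18 of all 818 tested sites were called. With the replicate block 1 of 703 members was called for N779A, where 3 of all 1256 tested sites were called, and 0 members in the other comparisons. Deviations of same-numbered lines correlated by −0.180 to 0.082 over 626 sites, so the numbers do not pair the lines. With crossed numbers, a setting chosen after seeing the data, 0 members were called for DNMT3A. Centring each line on its median site moved the median log2 change of the members for DNMT3A from 0.09 to −2.16 and that of all sites tested from 0.86 to −1.40, and 0 members were called. Clusters of 3 or more sites without overlap numbered 24, 8, 19, 16 and 11 in the order DNMT3A, N656I, K777A, N779A and WT sets, by construction fewer. No background is given for clusters of this size, so these counts cannot be read against one. Members minus other sites ranged from −8.39 to −6.48 points with 1 line left out, and was −3.12 without the 45S cluster, −3.11 with clusters weighted equally and −9.93 for members of 1200 or more reads. With 1 line left out, the CGT minus CGG difference ranged from 12.9 to 16.3 for DNMT3A, −11.2 to −7.75 for N656I, 19.1 to 22.1 for K777A and 3.73 to 6.72 for N779A. Between the WT sets it then ranged from −1.72 to 1.76 (−1.72 without set a line 2 and −1.48 without set b line 2) and was −0.99 without the 45S cluster. Other settings reached 12.5 for DNMT3A (without the 45S cluster), −11.6 for N656I (minimum of 5 reads), and at a minimum of 20 reads 22.6 for K777A, 8.40 for N779A and 2.0 between the WT sets. The class values at sites deep without the K777A and N779A lines, with reads weighted equally and without the chromosome 11 cluster were chosen after seeing the data. The causes were not tested beyond what is stated. Depth limits the levels in 45S, where many sites have no methylated read in a line.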
